A study of Mus musculus with 44 samples.

Results

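The interferon response genes described here are 9 mouse genes, Stat2, Irf7, Isg15, Ifit1, Ifit3, Oasl2, Ifitm3, Bst2 and Rtp4. They were chosen as a list of symbols, matched to Ensembl identifiers through GENCODE release M21, and all 9 were among the 50714 gene identifiers shared by the 44 count files. RNA came from dorsal cortex and hippocampus of mice that were (+/-) for CX3CR1-CreERT2 and (+/-) for RPL10a-GFP flox in every group, per the labels, whereas the series design gives the RPL10a-GFP allele as fl/fl. CreERT2 is a Cre recombinase that tamoxifen activates, here under the Cx3cr1 promoter, which is active in microglia and also in other macrophages and in monocytes. After recombination these cells carry ribosomal protein RPL10a fused to GFP, so that ribosomes and the RNA on them can be pulled down with an antibody to GFP (translating ribosome affinity purification, TRAP). Tamoxifen was given at 100 mg per kg in sunflower seed oil and ethanol on postnatal days 15, 17 and 19, and brains were taken on postnatal days 28 to 29. The labels give vehicle to control mice, and the series design calls them untreated.

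The libraries carry replicate letters, with 4 libraries to a letter. Input held all RNA of the tissue homogenate, and MG_TRAP held what the GFP antibody pulled down from it. For SN_input, RNA was taken from synaptosomes, a fraction rich in resealed nerve endings and what clings to them. PeMP_TRAP held what the antibody pulled down from synaptosomes, meant to be RNA on ribosomes of microglial processes beside synapses. The controls are A to C, and D to K are tamoxifen mice. A first set holds A to F (24 libraries). The second holds the 20 libraries of G to K, all tamoxifen, in which the labels name the last fraction SN_TRAP; it was treated here as PeMP_TRAP. No label says that the letters stand for separate animals, so p-values measure the spread between these samples, which may be technical.

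Type I interferons bind a receptor made of IFNAR1 and IFNAR2, and the kinases JAK1 and TYK2 then phosphorylate STAT2. Together with IRF9 it enters a complex that binds the interferon-stimulated response element (ISRE) in the promoters of interferon-stimulated genes. The gamma-activated sequence (GAS) is a promoter element that answers interferon gamma. IRF7 is itself induced and amplifies interferon production, and the products of the other genes act against viruses. Microglia, the resident macrophages of the brain, can both make and answer type I interferon, and raised levels of these genes mark an interferon-responsive microglial state.

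Promoters are shown to let the interferon elements be seen in the genes that hold them, with Irf7 as one that does not. RefSeq start sites on GRCm38.p6 were matched for 8 of the 9 genes, all but Rtp4. In the 300 bases from 250 before to 50 after each start, the ISRE letters GAAANNGAAA on either strand were found in 6 of the 8 genes, against 3.44% of 32851 promoter windows of the same length in the table. The GAS letters TTCNNNGAA, a palindromic pattern, were found in 2 of the 8, Bst2 and Ifitm3, against 8.30% of the windows. Below are the 250 bases before the start of Bst2 (chr8:71537473-71537722, minus strand), Isg15 (chr4:156200819-156201068, minus strand), Ifit1 (chr19:34640639-34640888, plus strand), Ifit3 (chr19:34583279-34583528, plus strand), Stat2 (chr10:128270248-128270497, plus strand) and Irf7 (chr7:141266425-141266674, minus strand). Each is written 5′ to 3′ in the direction of transcription, and capitals mark the bases covered by an ISRE match on either strand.
Bst2: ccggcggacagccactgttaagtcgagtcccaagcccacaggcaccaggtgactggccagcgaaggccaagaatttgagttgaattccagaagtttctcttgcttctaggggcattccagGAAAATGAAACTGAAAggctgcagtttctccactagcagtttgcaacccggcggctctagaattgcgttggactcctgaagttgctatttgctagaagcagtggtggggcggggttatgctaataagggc
Isg15: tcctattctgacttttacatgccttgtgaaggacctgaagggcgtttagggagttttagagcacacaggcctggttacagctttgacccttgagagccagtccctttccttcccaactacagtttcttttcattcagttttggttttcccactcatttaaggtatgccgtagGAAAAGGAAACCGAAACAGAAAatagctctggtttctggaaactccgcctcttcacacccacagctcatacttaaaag
Ifit1: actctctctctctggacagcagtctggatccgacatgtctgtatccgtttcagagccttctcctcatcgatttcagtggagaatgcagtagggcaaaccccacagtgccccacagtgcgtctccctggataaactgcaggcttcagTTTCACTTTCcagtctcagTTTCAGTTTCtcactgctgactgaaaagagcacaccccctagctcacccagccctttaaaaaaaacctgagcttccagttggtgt
Ifit3: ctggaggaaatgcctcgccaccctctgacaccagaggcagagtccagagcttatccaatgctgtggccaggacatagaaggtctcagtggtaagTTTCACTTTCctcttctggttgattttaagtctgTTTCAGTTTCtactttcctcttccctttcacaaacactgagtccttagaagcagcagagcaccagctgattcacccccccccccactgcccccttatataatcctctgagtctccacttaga
Stat2: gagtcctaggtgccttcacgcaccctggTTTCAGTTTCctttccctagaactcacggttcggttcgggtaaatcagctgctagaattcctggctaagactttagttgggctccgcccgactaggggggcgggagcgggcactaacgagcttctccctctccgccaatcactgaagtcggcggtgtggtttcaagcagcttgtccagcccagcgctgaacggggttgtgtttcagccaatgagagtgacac
Irf7: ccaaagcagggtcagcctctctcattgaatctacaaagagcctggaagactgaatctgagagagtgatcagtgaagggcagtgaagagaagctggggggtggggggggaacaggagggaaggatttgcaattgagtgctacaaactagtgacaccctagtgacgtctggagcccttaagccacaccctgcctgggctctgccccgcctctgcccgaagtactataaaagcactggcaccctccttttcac

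Counting the base before the start as -1, Bst2 held 2 matches beginning at -130 and -124, which overlap each other, and its GAS match at -136 overlaps the first of them. Isg15 held 3 overlapping matches that begin at -78, -72 and -66. Ifit1 and Ifit3, neighbours on chromosome 19, each held 2 matches on the opposite strand, beginning at -104 and -85 in Ifit1 and at -156 and -122 in Ifit3. The single match of Stat2 lay farther out, at -222 on the opposite strand. In Ifitm3 both ISRE matches lay after the start, at positions 3 and 20, and the GAS match at 14 overlaps the second of them. Irf7 and Oasl2 held neither pattern in this window, which says only that these letters are not there.

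**Figure D1:**
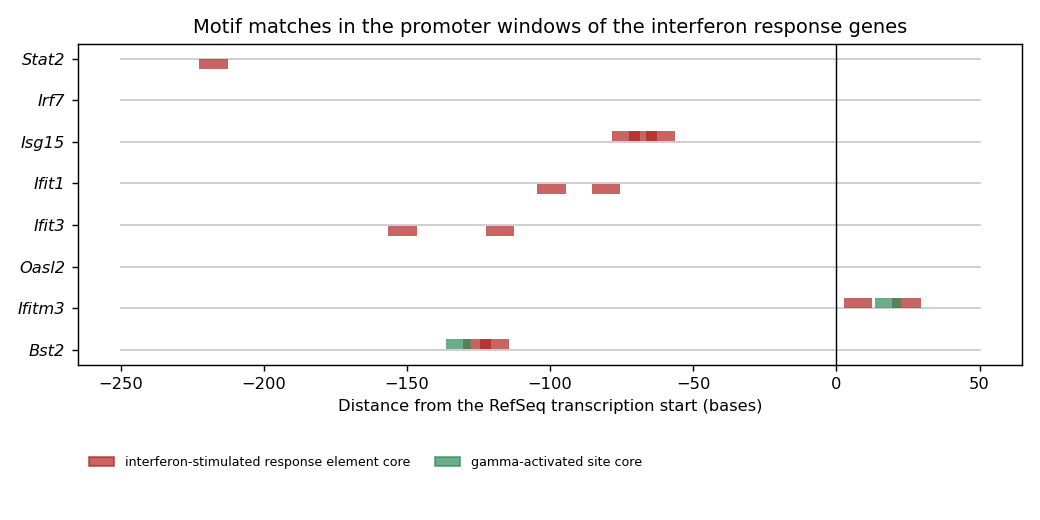
Positions of ISRE and GAS letter matches in the window from 250 bases before to 50 after the RefSeq start of 8 of the interferon response genes (x axis, bases from the start; 1 line per gene). Matches of Bst2, Isg15, Ifit1, Ifit3 and Stat2 lie before the start, those of Ifitm3 after it, and Irf7 and Oasl2 have none.

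Assigned reads ranged from 746616 to 35584637 per library. At a count of 0 the true level may still be as high as 3 counts, a floor that ranged from 0.0847 to 4.05 CPM, that is, counts scaled to the library's total. This floor covers counting error only, since PCR copies could not be told from separate molecules. In the bounds given below the floor is scaled by TMM, as the levels are, so it can lie outside this range. The second-set PeMP_TRAP libraries stand apart: they had 20442643 to 35584637 assigned reads but only 5372 to 7369 genes with a count, against 11694 to 13096 in PeMP_TRAP of D, E and F. All 16 microglial markers measured were higher in MG_TRAP than in Input of tamoxifen mice and in PeMP_TRAP than in SN_input, among them Cx3cr1, the receptor gene whose promoter drives the Cre, with log2 fold changes of 6.56 and 2.91 and edgeR adjusted p = 5.88e-12 and 4.44e-05, and Tmem119, a microglial membrane protein, with 6.78 and 3.80 (adjusted p = 3.53e-11 and 6.99e-06). Control immunoprecipitates were not free of microglial RNA: the summed markers reached 3373 to 6224 CPM in control MG_TRAP and 359 to 491 CPM in control Input.

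Levels of the 9 genes are given first, in CPM scaled by TMM, with the lowest, median and highest value where a group has 8 libraries, and with the value of each library for the 3 control libraries in the order A, B, C.

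Bst2 (chr8:71534255-71537456, minus strand) encodes tetherin, a membrane protein that holds budding enveloped viruses on the cell surface. Its level in tamoxifen libraries was 0.265, 2.88 and 4.53 CPM in Input, 56.5, 87.5 and 194 CPM in MG_TRAP, 0.173, 26.1 and 60.6 CPM in SN_input and 45.6, 219 and 1240 CPM in PeMP_TRAP. Every tamoxifen MG_TRAP library lay above every tamoxifen Input library, while SN_input and PeMP_TRAP overlapped. In control mice Bst2 stood at 0.0752, 2.22 and 0 CPM in Input, 7.5, 2.61 and 14.2 CPM in MG_TRAP, 6.27, 6.21 and 15.6 CPM in SN_input and 57.9, 2.79 and 0.699 CPM in PeMP_TRAP. Bst2 was the only one of the 9 genes above 3 counts in all 8 PeMP_TRAP and all 8 MG_TRAP libraries of tamoxifen mice.

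Ifitm3 (chr7:141009586-141010770, minus strand) encodes a membrane protein that hinders the fusion of viruses in endosomes. Its tamoxifen levels were 3.52, 8.09 and 56.4 CPM in Input, 7.04, 27.1 and 561 CPM in MG_TRAP, 0, 21.4 and 56.5 CPM in SN_input and 0, 98.3 and 161 CPM in PeMP_TRAP. PeMP_TRAP libraries I and J were at 0 while the other 6 lay between 11.6 and 161 CPM. In control mice the values were 2.10, 11.2 and 60.8 CPM in Input, 4.39, 24 and 10.7 CPM in MG_TRAP, 9.58, 17 and 7.06 CPM in SN_input and 132, 709 and 45.8 CPM in PeMP_TRAP. Its highest value in any library was thus in a control PeMP_TRAP library.

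Rtp4 (chr16:23520291-23614222, plus strand) encodes a transporter-like protein that helps receptors to the membrane and is strongly induced by interferon. Its tamoxifen levels were 0, 2.16 and 3.90 CPM in Input, 20.4, 41.0 and 104 CPM in MG_TRAP, 1.10, 4.21 and 59.3 CPM in SN_input and 0, 0 and 273 CPM in PeMP_TRAP. As with Bst2, every tamoxifen MG_TRAP library lay above every Input library. In PeMP_TRAP only libraries D, F and G had counts, at 273, 32 and 8.29 CPM, and the other 5 were at 0. Control levels were 0.0752, 0.317 and 0 CPM in Input, 8.71, 7.32 and 7.60 CPM in MG_TRAP, 0.495, 6.87 and 0.0905 CPM in SN_input and 5.98, 1.4 and 0 CPM in PeMP_TRAP. The gene model shares 296 exon bases, 13.9% of its exon length, with Gm45338 on the same strand, so its counts are uncertain to that extent.

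Isg15 (chr4:156199424-156200818, minus strand) encodes a ubiquitin-like protein that is joined to other proteins after infection. In tamoxifen libraries it stood at 0.396, 1.05 and 4.14 CPM in Input, 0, 12.5 and 28.0 CPM in MG_TRAP, 0, 0.363 and 4.74 CPM in SN_input and 0, 1.4 and 43.3 CPM in PeMP_TRAP. The groups overlapped: MG_TRAP library J was at 0, and the other 7 MG_TRAP libraries, between 3.90 and 28.0 CPM, also reached below the highest Input library. In control mice it was at 0, 2.22 and 1.76 CPM in Input, 0, 0 and 2.92 CPM in MG_TRAP, 2.48, 0 and 3.44 CPM in SN_input and 39.1, 2.79 and 0 CPM in PeMP_TRAP.

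Oasl2 (chr5:114896936-114912234, plus strand) belongs to the family of oligoadenylate synthetases, whose product switches on RNase L. Its tamoxifen levels were 0, 1.15 and 2.13 CPM in Input, 0, 17.4 and 64.5 CPM in MG_TRAP, 0, 0 and 7.34 CPM in SN_input and 0, 0.0181 and 1.23 CPM in PeMP_TRAP, where no library had more than 1 count. The control PeMP_TRAP libraries were far higher, at 394, 5.58 and 126 CPM, and did not overlap with the tamoxifen ones. The other control values were 0.0752, 0 and 1.41 CPM in Input, 0, 0.523 and 0 CPM in MG_TRAP and 0.991, 0.327 and 0 CPM in SN_input.

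Ifit3 (chr19:34583531-34588731, plus strand) and Ifit1 (chr19:34640871-34650009, plus strand) encode related proteins with tetratricopeptide repeats, which bind viral RNA. Ifit3 stood at 0, 3.72 and 7.74 CPM in Input, 0, 9.83 and 67.2 CPM in MG_TRAP, 0.562, 5 and 113 CPM in SN_input and 0, 1.01 and 172 CPM in PeMP_TRAP of tamoxifen mice. The zeros of Ifit3 fell on Input D, E and F, on MG_TRAP I, J and K, and on PeMP_TRAP G, H, I and K. Its control values were 6.69, 9.5 and 5.64 CPM in Input, 14.9, 0 and 5.45 CPM in MG_TRAP, 0.165, 1.31 and 0 CPM in SN_input and 0, 1.4 and 0 CPM in PeMP_TRAP.

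Ifit1 was low in every tamoxifen group. It reached 0, 0.535 and 1.39 CPM in Input, 0, 0 and 3.27 CPM in MG_TRAP and 0, 0.978 and 9.56 CPM in SN_input, and it was at 0 in all 8 tamoxifen PeMP_TRAP libraries. Among control libraries it was at 0, 12.5 and 8.83 CPM in MG_TRAP and 7.82, 18.1 and 0 CPM in PeMP_TRAP, and at most 0.327 CPM in Input and SN_input. Ifit3 and Ifit3b are close copies, and Ifit1 is a related gene. How the counting split reads among such genes is not given in the sources used here, so their values are uncertain. The Ifitm and Oasl families have close copies too, to which the same applies.

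Stat2 (chr10:128270559-128292849, plus strand), a transcription factor gene like Irf7, encodes a subunit of the ISRE-binding complex. Its tamoxifen levels were 0.394, 11.4 and 19.9 CPM in Input, 0.406, 14 and 21.3 CPM in MG_TRAP, 0, 1.57 and 7.45 CPM in SN_input and 0, 0 and 2.01 CPM in PeMP_TRAP. Input and MG_TRAP overlapped almost wholly, and 6 of the 8 PeMP_TRAP libraries were at 0. In control mice Stat2 was at 18, 9.5 and 0.529 CPM in Input, 0, 7.32 and 8.53 CPM in MG_TRAP, 0.330, 7.52 and 17.7 CPM in SN_input and 28.5, 267 and 0 CPM in PeMP_TRAP.

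Irf7 (chr7:141262706-141266481, minus strand) encodes the interferon regulatory factor that amplifies the response. It stood at 0, 1.84 and 6.62 CPM in Input, 0, 8.19 and 24.2 CPM in MG_TRAP and 0, 0.483 and 10.5 CPM in SN_input of tamoxifen mice, and at 0 in all 8 PeMP_TRAP libraries. All 9 control libraries of Input, MG_TRAP and SN_input were at 0, and among the control PeMP_TRAP libraries only B had counts, at 37.7 CPM. Its gene model shares 45 exon bases with Phrf1 on the opposite strand, and whether counting used strand is not given in the sources used here.

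**Figure D2:**
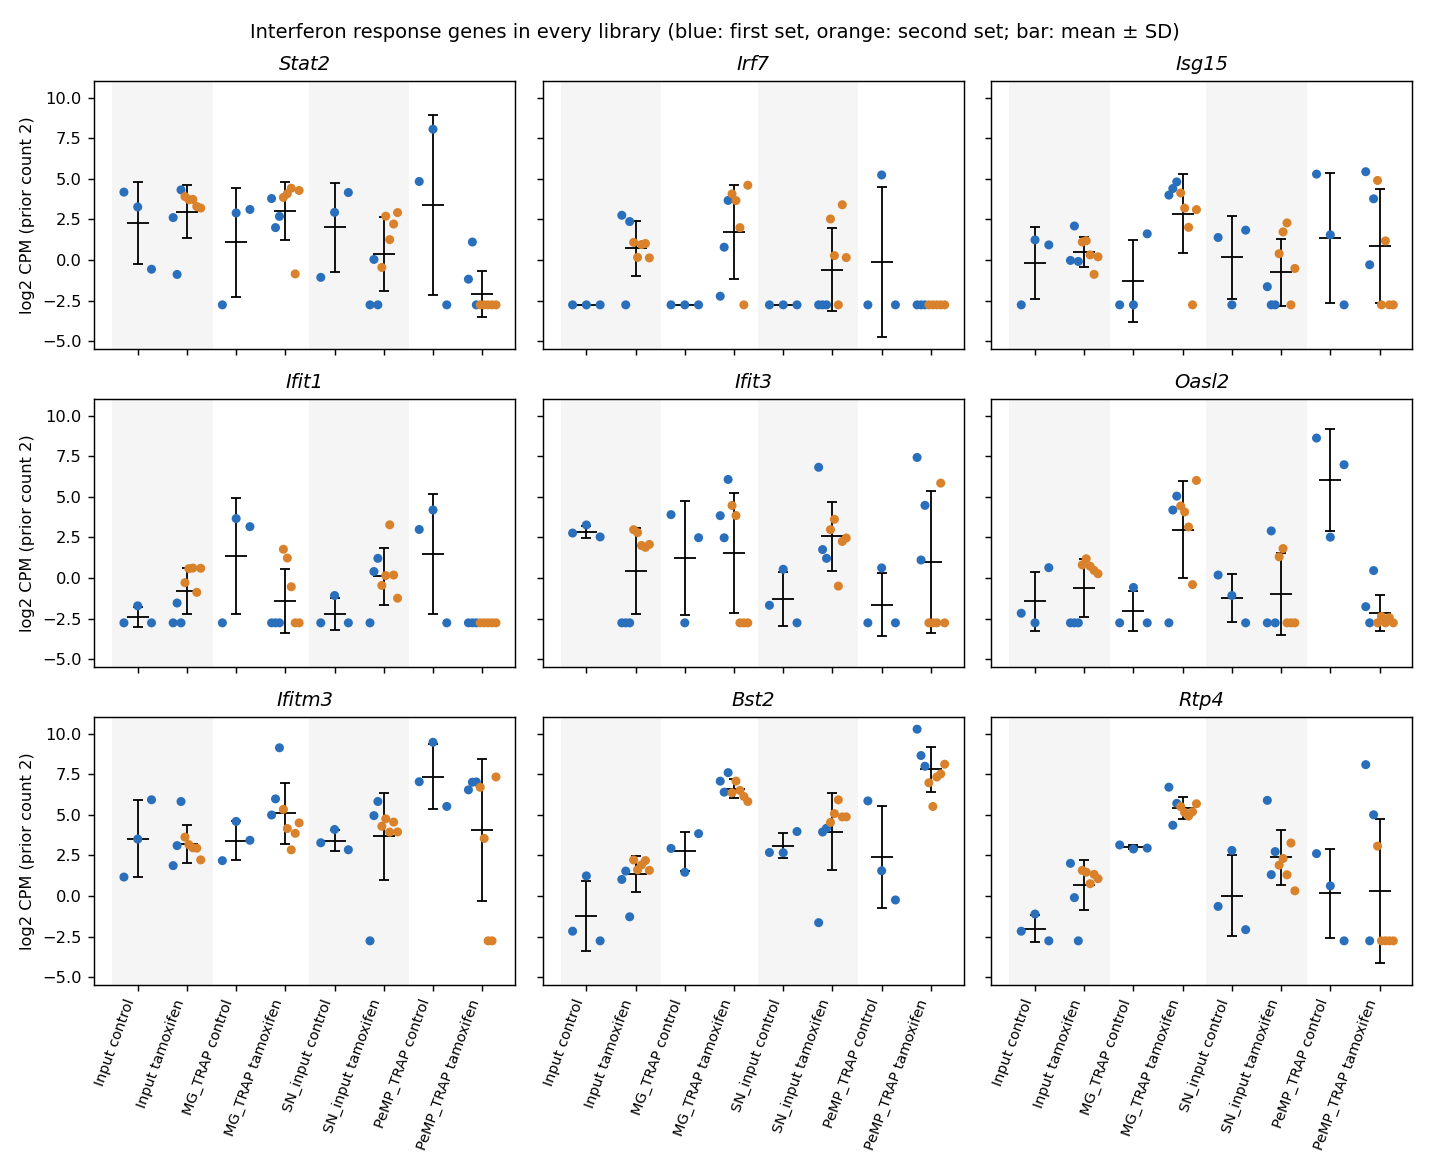
Log2 CPM (prior count 2, y axis) of the 9 interferon response genes in all 44 libraries by fraction and treatment (x axis; blue points, first set; orange points, second set; bars, mean ± SD). Bst2 is high in every tamoxifen MG_TRAP and PeMP_TRAP library, while Irf7, Ifit1, Stat2 and Oasl2 lie at the bottom of the scale in tamoxifen PeMP_TRAP.

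To compare levels between genes, CPM was divided by exon length. In MG_TRAP of tamoxifen mice the median was 96.9 CPM per kb for Bst2, 40.0 for Ifitm3, 19.2 for Rtp4, 16.5 for Isg15, 5.63 for Ifit3, 2.73 for Oasl2, 2.37 for Stat2, 2.17 for Irf7 and 0 for Ifit1. Neighbours in this order had overlapping ranges throughout, for example 62.6 to 215 CPM per kb for Bst2 and 10.4 to 827 for Ifitm3. In PeMP_TRAP of tamoxifen mice the order began with Bst2 at 243 and Ifitm3 at 145 CPM per kb, and the next gene, Isg15, had a median of 1.85. Bst2 took 20.3% to 57.5% of the summed CPM of the 9 genes in tamoxifen MG_TRAP libraries (median 40.8%) and 47.0% to 98.7% in PeMP_TRAP (median 71.6%), against 0.322% to 16.5% in Input (median 9.74%). In control PeMP_TRAP libraries its share was 0.267% to 8.71%, where Oasl2 had the highest median share (59.3%, against 26.5% for Ifitm3), while per kb Ifitm3 came first, with a median of 194 CPM per kb.

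The comparison of MG_TRAP with Input asks which RNAs were on the ribosomes of the Cre-expressing cells more than in the tissue as a whole. Bst2 was higher in MG_TRAP and was the only gene of the list past the threshold (1 of 9; 4.67% of the 15710 genes tested were called higher). Over 8 libraries against 8 it rose by 5.23 on the log2 scale (SE 0.77, edgeR adjusted p = 4.25e-06), with 6.59 (SE 1.34, adjusted p = 0.00203) in the first set and 4.59 (SE 0.55, adjusted p = 1.12e-05) in the second. Rtp4 did not pass, with a log2 fold change of 4.31 (SE 1.42, edgeR adjusted p = 0.0584). It did pass with a term for each letter in the fit. Its groups did not overlap either. That absence of overlap held for 2 of the 9 genes, Bst2 and Rtp4, and for 5.16% of all genes tested in that direction. It held for the same 2 genes in control mice, 3 libraries against 3, where the tag should be absent (6.34% of all genes tested; adjusted p = 0.589 for both). Oasl2 had a log2 fold change of 4.39 (SE 1.56, adjusted p = 0.0874), Isg15 3.04 (SE 1.41, adjusted p = 0.263) and Ifitm3 2.43 (SE 1.11, adjusted p = 0.251), and none of these passed.

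The remaining genes did not pass either, with differences of 1.67 on the log2 scale for Irf7 (SE 1.43, adjusted p = 0.672), 1.34 for Ifit3 (SE 1.66, adjusted p = 0.812), 0.23 for Stat2 (SE 1.15, adjusted p = 0.968) and -0.02 for Ifit1 (SE 0.79, adjusted p = 0.996). Ifit3 passed in the first set alone, where all 3 Input libraries were at 0 (adjusted p = 0.00964), and stood at 0.50 in the second set (SE 2.11, adjusted p = 1.000). The median over the 9 genes was 2.43, beside -0.14 over all genes tested. Scaling by relative log expression (RLE) in place of TMM moved the median of all genes by -0.52 and left Bst2 at 4.75. In bulk samples such as these, fewer cells of a type and less RNA per cell cannot be told apart.

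Other cells that express Cx3cr1 or interferon-stimulated genes were read beside this result. Of 7 border macrophage markers 3 were higher in MG_TRAP than in Input, and their summed level was 65.6 to 266 CPM in tamoxifen MG_TRAP against 1.38 to 18.5 CPM in Input. Of the 6 plasma cell and B cell markers tested 4 were higher, with a sum of 572 to 2049 CPM against 13 to 70.5 CPM in Input. The 6 monocyte and neutrophil markers summed to 0.0661 to 51.8 CPM in tamoxifen MG_TRAP and to 0 to 6.75 CPM in Input. The summed level of the 16 microglial markers in tamoxifen MG_TRAP was 44252 to 46718 CPM in the first set and 15603 to 25927 CPM in the second. Their part in the result for Bst2 was not tested.

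PeMP_TRAP against SN_input makes the same comparison within the synaptosome fraction. Bst2 was higher in PeMP_TRAP and Irf7 and Ifit1 were called lower, and the other 6 genes did not pass (1 higher, where 6.15% of all genes were called, and 2 lower, where 26.1% were called). The log2 fold change of Bst2 was 3.94 (SE 0.75, adjusted p = 0.0002), with 6.23 (SE 1.31, adjusted p = 0.00918) in the first set and 2.34 (SE 0.50, adjusted p = 0.00082) in the second. The ranges of the 2 groups overlapped between 45.6 and 60.6 CPM. In the same comparison 5 of 6 plasma cell and B cell markers were higher and 1 lower (list median 5.66), while 8 of 8 oligodendrocyte, 8 of 10 neuronal, 5 of 8 astrocyte, 4 of 8 endothelial (with 1 higher) and 2 of 7 border macrophage markers were lower, and their part in these results was not tested.

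Ifit1 (adjusted p = 0.000725) and Irf7 (adjusted p = 0.00194) had no counts in any tamoxifen PeMP_TRAP library, and their mean in SN_input lay under the highest floor of 3 counts of those libraries, 3.69 CPM, so no fold is given. Stat2 and Oasl2 did not pass (adjusted p = 0.0754 and 0.0602), and both did without letter D (adjusted p = 0.0336 and 0.0276). In the second set alone all 4 of these genes were lower, where 39.3% of all genes were called lower. In the first set alone none was, where 0.470% were, but Ifit1 was not tested there and Irf7 was at 0 in every PeMP_TRAP and SN_input library of D, E and F. The second-set PeMP_TRAP libraries had 2 to 4 of the 9 genes above 3 counts, against 7 to 9 in SN_input of the same set, and they are the libraries with few genes detected, whose part in these calls was not tested.

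Isg15 had a log2 fold change of 3.07 (SE 1.48, adjusted p = 0.11), Ifitm3 1.88 (SE 1.06, adjusted p = 0.178), Rtp4 1.37 (SE 1.42, adjusted p = 0.503) and Ifit3 1.25 (SE 1.58, adjusted p = 0.588). These genes were at 0 in 2 to 5 of the 8 PeMP_TRAP libraries. The median over the list was 1.25, also with the 4 genes at the floor set to a difference of 0, beside -0.75 over all genes.

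**Figure D3:**
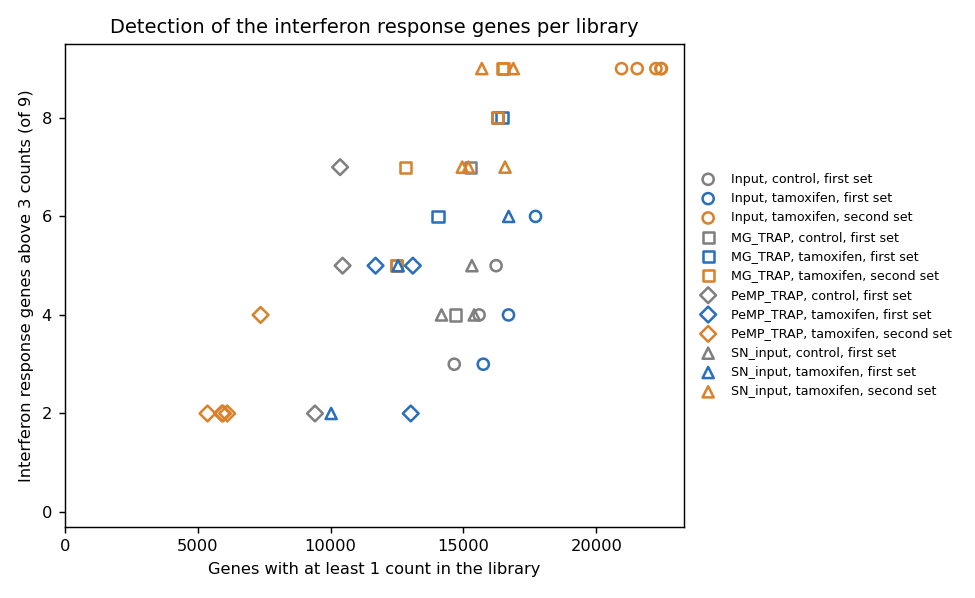
Number of the 9 interferon response genes above 3 counts (y axis) against the number of genes with a count (x axis) in each library, by fraction and set. Second-set PeMP_TRAP libraries, with 5372 to 7369 genes detected, had 2 to 4 of the 9 genes above 3 counts, and all second-set Input libraries had 9.

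PeMP_TRAP was also set against MG_TRAP, the immunoprecipitate of the whole homogenate. Bst2 was higher in PeMP_TRAP (1 of 9, where 3.17% of all genes were called), and Irf7, Oasl2, Ifit1 and Stat2 were lower (4 of 9, where 22.0% were called). The log2 fold change of Bst2 was 2.08 (SE 0.67, adjusted p = 0.0184). It did not hold within either set, at 2.58 (SE 1.10, adjusted p = 0.443) in the first and 1.11 (SE 0.48, adjusted p = 0.0722) in the second, and it passed in 7 of 16 other settings of the analysis, with 1.39 (adjusted p = 0.102) under RLE scaling, 1.37 (adjusted p = 0.0529) without letter D and 1.81 (adjusted p = 0.0657) without letter E. In the same comparison 2 of 6 plasma cell and B cell markers were higher and 1 lower (list median 1.77), 2 of 7 border macrophage markers were lower, 1 of 10 neuronal markers was higher and 3 lower, and 3 of 16 microglial markers were higher and 2 lower. The part of these cells was not tested.

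Against the floor of 3.69 CPM, Oasl2 was at least 5.52-fold lower (adjusted p = 0.00349), Stat2 at least 3.26-fold lower (adjusted p = 0.00731) and Irf7 at least 2.42-fold lower (adjusted p = 0.000731), and for Ifit1 (adjusted p = 0.00544) no fold is given. Library F sets this floor, and without it the bounds are 9.23, 6.38 and 4.18. The other 4 genes did not pass, with 1.45 for Ifit3, 0.68 for Ifitm3, 0.17 for Isg15 and -1.25 for Rtp4 (adjusted p = 0.581 to 0.958). None of the 9 genes passed in the first set alone, where 0% of the 12968 genes tested did. In the second set 5 genes were lower, the same 4 and Rtp4 (adjusted p = 0.0369), where 38.2% of all genes were called lower. The median over the list was -1.25 as fitted and 0 with the genes at the floor set to their bound or to 0, beside -0.57 over all genes.

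**Figure D4:**
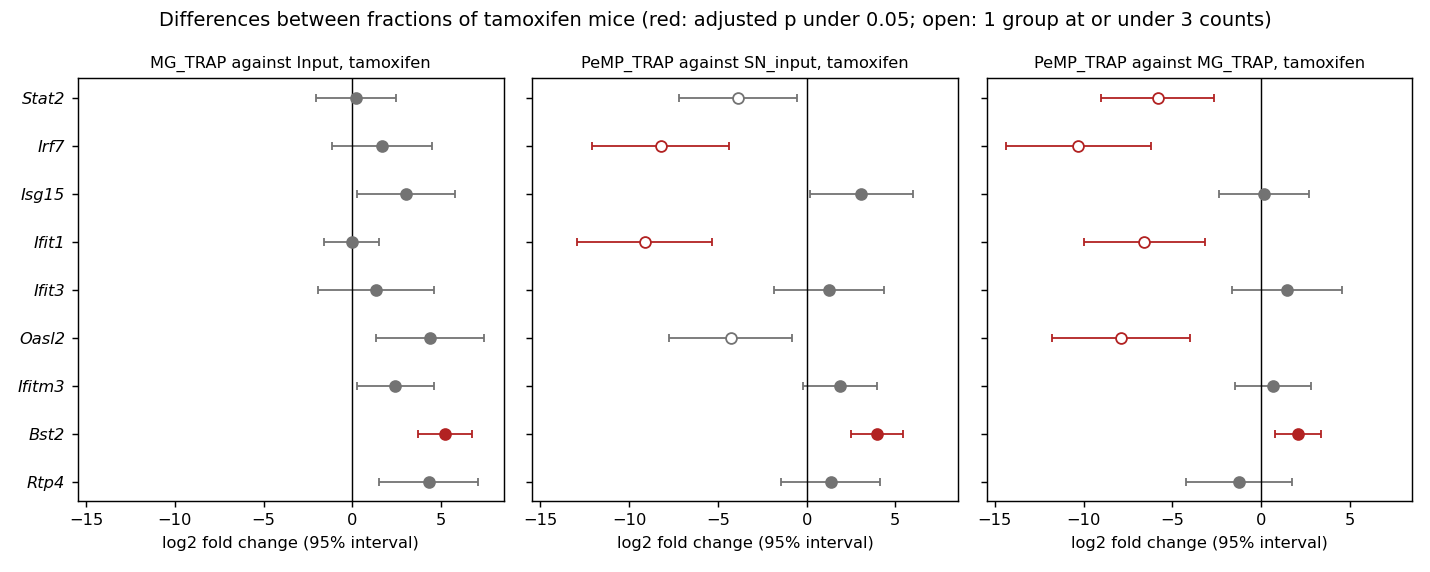
Log2 fold changes with 95% intervals (x axis) of the 9 interferon response genes (y axis) in 3 comparisons between fractions of tamoxifen mice (red, adjusted p under 0.05; open points, 1 group at or under 3 counts in every library, where the fitted value is no bound). Bst2 is to the right of 0 in all 3 panels, with 5.23, 3.94 and 2.08.

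The synaptosome fraction itself was compared with the homogenate. Bst2 was higher in SN_input than in Input (1 of 9, where 2.08% of all genes were called), by 3.36 on the log2 scale (SE 0.70, adjusted p = 0.00254), with 2.95 in the first set (SE 1.15, adjusted p = 0.642) and 3.37 in the second (SE 0.52, adjusted p = 0.000284). Bst2 passed in 13 of 16 other settings, and over all 16 it ranged from 2.35 to 3.5. The other 8 genes did not pass (adjusted p = 0.514 to 0.996), with 2.53 for Ifit1, 1.70 for Rtp4, 1.53 for Ifit3, 1.22 for Ifitm3, 0.77 for Oasl2, 0.14 for Isg15, -0.39 for Irf7 and -1.71 for Stat2. Total counts without a scaling factor moved the median of all genes by -1.05, gave 93 genes higher and 230 lower in place of 327 and 73, and left Bst2 at 2.35 (adjusted p = 0.0571). Beside it, 14 of 16 microglial markers were higher in SN_input than in Input, with a list median of 3.71, and so were 4 of 8 astrocyte, 3 of 8 oligodendrocyte and 1 of 7 border macrophage markers.

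Whether the enrichment in the synaptosome fraction differed from that in the homogenate was tested as the difference of the 2 enrichments. The test called Irf7, Ifit1 and Oasl2 lower (3 of 9, where 10.9% of all genes were called lower; adjusted p = 0.00684, 0.00591 and 0.0123). Each had at most 3 counts in every PeMP_TRAP library and a mean in SN_input under the highest floor of those libraries, which library F sets. Against that floor its enrichment in the synaptosome fraction was not measurable, so its call gives no size of a difference. In the second set Irf7 and Ifit1 were at 0 in every PeMP_TRAP library. Their SN_input levels there had medians of 1.06 and 0.965 CPM and reached 10.5 and 9.56 CPM. The difference for Bst2 was -1.28 (SE 0.91, adjusted p = 0.467), so that the smaller value in the synaptosome fraction lay within the spread. In the first set no gene of the list passed, nor did any other gene (0%). In the second 5 did, where 28.9% of all genes were called lower, Bst2 among them at -2.26 (SE 0.68, adjusted p = 0.0159). Beside these genes, 14 of 16 microglial markers were called lower in the same difference over both sets, with a median of -3.25, and their part in the result was not tested.

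The 2 sets were compared directly for the enrichment of PeMP_TRAP over SN_input. The test called 2 of 9 genes lower in the second set than in the first, Bst2 (-3.75 on the log2 scale, SE 1.21, adjusted p = 0.0303) and Stat2 (adjusted p = 0.00214), where 14.9% of 17961 genes were called lower. Stat2 had at most 3 counts in any SN_input or PeMP_TRAP library of D, E and F, so its enrichment in the first set was not measurable and its call shows no difference between the sets. The difference for Bst2 was -1.96 (edgeR adjusted p = 0.317) without letter D. It also missed the threshold without E (-4.29, adjusted p = 0.0637), H (-3.52, adjusted p = 0.0565) or I (-3.46, adjusted p = 0.0708), and with a term for each letter in the fit. For MG_TRAP over Input the test of the set difference called no gene of the list (0% of all genes by edgeR, 1070 at an unadjusted p under 0.05), and DESeq2 called 1 lower, among 0.863% of all genes.

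Control mice, in which the tag should be absent, show the background of the immunoprecipitation and were compared within the first set, 3 libraries against 3. In MG_TRAP, Bst2 was at 135, 84.3 and 194 CPM in tamoxifen libraries D, E and F and at 7.5, 2.61 and 14.2 CPM in controls. The difference of 4.12 on the log2 scale (SE 1.46, adjusted p = 0.243) did not pass. Ifitm3 was at 31.7, 63.2 and 561 CPM against 4.39, 24 and 10.7 CPM in controls, a difference of 4.15 (SE 1.54, adjusted p = 0.243).

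In 5 of the 9 genes (Irf7, Ifitm3, Bst2, Isg15 and Rtp4) every tamoxifen MG_TRAP library of the first set lay above every control one, beside 13.1% of all genes tested. For Irf7 this rests on 1 count in library D, under the floor of the control libraries. No gene of any kind passed the threshold there (0% of 14771 genes by edgeR, 2351 at an unadjusted p under 0.05), while DESeq2 called 472 higher (3.20%) and 403 lower, Ifitm3 and Bst2 among the former. Isg15 differed by 4.45 (SE 2.42, adjusted p = 0.359), Rtp4 by 2.92 (SE 1.88, adjusted p = 0.453), Ifit3 by 2.17 (SE 1.91, adjusted p = 0.606) and Stat2 by 0.61 (SE 1.93, adjusted p = 0.929). Against the floor in the group with at most 1 count in a library, Irf7 was at least 3.03-fold higher (adjusted p = 0.253), Oasl2 at least 10.9-fold higher (adjusted p = 0.243) and Ifit1 at least 6.78-fold lower (adjusted p = 0.243) in tamoxifen libraries, and none of these passed. Without letter F no bound remains for Irf7 and that of Oasl2 is 5.78, and without B, whose library sets the floor, they are 20.6 and 73.8. For Ifit1 it is 4.21 without B, 10.2 without A and 10.5 without F. The median over the 9 genes was 4.12 as fitted and 2.92 with these 3 at their bounds, beside -0.14 over all genes. Summed microglial markers stood at 44252 to 46718 CPM in these tamoxifen libraries and 3373 to 6224 CPM in controls. Border macrophage markers stood at 132 to 266 and 0 to 12.6 CPM. Those of plasma cells and B cells stood at 596 to 2049 and 93.5 to 256 CPM. Neuronal markers were lower, at 1456 to 2476 and 7552 to 9977 CPM, as were astrocyte, oligodendrocyte and endothelial sums. The part of these cells was not tested.

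In PeMP_TRAP, Bst2 and Ifit3 were higher and Oasl2 was lower in tamoxifen mice (2 of 9 higher, where 5.56% of all genes were called, and 1 of 9 lower, where also 5.56% were called). Bst2 stood at 1240, 403 and 255 CPM in D, E and F against 57.9, 2.79 and 0.699 CPM in controls, a log2 fold change of 4.95 (SE 1.52, adjusted p = 0.0315). Ifit3 stood at 172, 2.01 and 22.1 CPM against at most 1 count in controls, at least 15.6-fold higher (adjusted p = 0.049). Without letter D the bound of Ifit3 is 2.88, and without B it is 47.4. Oasl2 went the other way, with at most 1 count in D, E and F against 394, 5.58 and 126 CPM in controls, at least 47.5-fold lower (adjusted p = 0.0363), with a bound of 17.9 without letter A and 87.0 without F. Of the 6 genes that did not pass, Rtp4 differed by 5.35 (SE 2.13, adjusted p = 0.0842), Isg15 by 0.47 (SE 2.11, adjusted p = 0.937) and Ifitm3 by -1.28 (SE 1.37, adjusted p = 0.533). Stat2 was at least 26.7-fold (adjusted p = 0.0654), Irf7 at least 3.4-fold (adjusted p = 0.113) and Ifit1 at least 2.34-fold lower (adjusted p = 0.105). Without control letter B the bounds of Stat2 and Ifit1 are 3.86 and 1.06 and none remains for Irf7, and without F, which sets the floor, they are 48.8 for Stat2, 6.24 for Irf7 and 4.3 for Ifit1.

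These 3 genes are also those whose groups did not overlap in PeMP_TRAP (2 higher and 1 lower, beside 10.6% and 5.02% of all genes tested). For Ifit3 this rests on 3 counts in library E against 1 count in control B, both within the floor. Each call was lost when certain single letters were left out: C, D or F for Bst2, A, C, D or F for Ifit3, and A, C, D, E or F for Oasl2, with adjusted p of up to 0.0676, 0.154 and 0.102. Those of Bst2 (adjusted p = 0.0617) and Ifit3 (adjusted p = 0.0594) were also lost under total counts without a scaling factor. The median over the 9 genes was -1.28 as fitted and -1.23 with 5 genes at their bounds, beside 0 over all genes. The summed level of the 16 microglial markers was 31188 to 130336 CPM in D, E and F and 758 to 12750.5 CPM in controls, and 13 of the 16 markers were higher. Some markers of other cells were lower in the same comparison: 3 of 7 endothelial markers tested (list median -6.49; summed level 13.4 to 647 CPM in D, E and F and 715 to 2812 CPM in controls) and 4 of 8 oligodendrocyte markers (list median -2.32; 643 to 5694 CPM and 7734 to 23095 CPM), with 2 of 10 neuronal and 1 of 8 astrocyte markers. Of the 4 plasma cell and B cell markers tested 2 were higher (list median 10.07; 199 to 3202 CPM in D, E and F and 1.84 to 312 CPM in controls). The part of these cells in the differences was not tested.

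The total RNA fractions gave no call of any gene between tamoxifen and control mice, in Input (0% of genes tested, 452 at an unadjusted p under 0.05 by edgeR) or in SN_input (0%, 495 at an unadjusted p under 0.05). DESeq2 called 1 gene of the list, Ifit3, lower in tamoxifen Input among 0.0812% of all genes, and in it D, E and F were at 0 and the controls between 5.64 and 9.5 CPM. Within control mice, MG_TRAP against Input called 0.0135% of genes and none of the list, and PeMP_TRAP against SN_input called 0% (2577 at an unadjusted p under 0.05), where DESeq2 called Ifitm3 and Oasl2 higher among 3.01% of all genes. The difference of the enrichments between tamoxifen and control mice called none of the 9 genes by edgeR, beside 0% of all genes for MG_TRAP over Input (1357 at an unadjusted p under 0.05) and 1.24% for PeMP_TRAP over SN_input (2928 at an unadjusted p under 0.05).

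Around the 9 genes, 85 further genes of the pathway in 6 lists were read, of which 63 could be tested. All 9 interferon ligand genes, among them Ifnb1 and Ifng, had a count of 0 in every library. In MG_TRAP against Input 17 of the 63 genes were higher and none lower, where 4.67% and 2.15% of all genes were called, with a median log2 fold change of 3.01 beside -0.14 over all genes. Among receptors and kinases (2 of 8 higher), Ifngr1, a chain of the interferon gamma receptor, had 5.20 (SE 0.92, adjusted p = 0.000116), and Il10rb, a chain shared by the interferon lambda and interleukin 10 receptors, had 4.49 (SE 1.25, adjusted p = 0.0169). Of the transcription factors (2 of 7 higher), Irf5 had 7.02 (SE 1.20, adjusted p = 6.99e-05) and Irf8, which microglia need for their development, 5.61 (SE 0.61, adjusted p = 6.08e-09). Of the nucleic acid sensors and adaptors (3 of 11 higher), the RNA receptor Tlr7 had 6.12 (SE 1.39, adjusted p = 0.00311), Zbp1 6.03 (SE 1.89, adjusted p = 0.0431) and Tmem173, which encodes STING, 5.95 (SE 1.26, adjusted p = 0.00139).

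Among the other interferon-stimulated effectors 10 of 32 were higher. The immunoproteasome subunits Psmb9 and Psmb8 had 6.85 (SE 1.16, adjusted p = 6.39e-05) and 6.63 (SE 0.71, adjusted p = 4.52e-09), and the ubiquitin ligase gene Trim30a had 6.81 (SE 1.67, adjusted p = 0.00585). None of the 5 feedback regulators passed. The list medians were 1.31 for receptors and kinases, 3.95 for transcription factors, 3.76 for sensors, 3.32 for effectors and 2.43 for feedback regulators. Irf8 spanned 193 to 694 CPM in the tamoxifen MG_TRAP libraries and 5.01 to 20.4 CPM in Input, and Psmb8 97.2 to 355 CPM against 0.265 to 3.55 CPM, so neither overlapped.

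In PeMP_TRAP against SN_input 18 of the 63 genes were higher and 9 lower, where 6.15% and 26.1% of all genes were called, with a fitted median of 2.45 beside -0.75 over all genes. Ifngr1 (2.7, SE 0.85, adjusted p = 0.0124), Il10rb (3.74, SE 1.37, adjusted p = 0.0324), Irf5 (4.77, SE 1.12, adjusted p = 0.00136), Irf8 (2.85, SE 0.54, adjusted p = 0.000185), Irf2 (2.57, SE 0.97, adjusted p = 0.0374), Zbp1 (5.93, SE 1.75, adjusted p = 0.00838), Cgas, which makes the ligand of STING (6.45, SE 1.80, adjusted p = 0.00549), and Psmb9 (5.35, SE 1.10, adjusted p = 0.000445) were higher. The call of Socs3, a feedback inhibitor (6, SE 1.86, adjusted p = 0.0118), rests on PeMP_TRAP library J, since the other 7 were at 0, and without letter J the value was -6.58 (adjusted p = 0.00424). Lower were Irgm1, a guanosine triphosphatase of the response (-7.29, SE 1.41, adjusted p = 0.000239), Ifit3b (-6.64, SE 1.88, adjusted p = 0.00619) and, with every PeMP_TRAP library at or under 3 counts, the adaptor Mavs and the ubiquitin ligase gene Herc6. Irgm1 was near the floor in every tamoxifen PeMP_TRAP library, so the size of its fitted value is uncertain.

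Between the 2 immunoprecipitates none of the 63 genes was higher in PeMP_TRAP and 10 were lower, where 3.17% and 22.0% of all genes were called, with a fitted median of -0.27 beside -0.57 over all genes. The 10 included the kinase gene Jak1 (-1.52, SE 0.55, adjusted p = 0.0352), Irgm1 (-8.60, SE 1.45, adjusted p = 0.000111), Gbp7 (-3.61, SE 1.29, adjusted p = 0.0351) and, at or under 3 counts in every PeMP_TRAP library, Mavs, the RNA sensor Ifih1 and Herc6. Irgm1 was near the floor in PeMP_TRAP here too, so the size of its value is uncertain. In SN_input against Input 2 of the 63 genes were higher, where 2.08% of all genes were called, Irf8 (2.15, SE 0.52, adjusted p = 0.0138) and Psmb8 (4.13, SE 0.63, adjusted p = 2.66e-05). Within the sets, Ifngr1, Irf5, Irf8, Psmb8 and Psmb9 passed in both for MG_TRAP against Input, Tlr7, Tmem173 and Trim30a in the first alone, and Il10rb and Zbp1 in neither. Zbp1 passed there in 5 of 16 other settings. For PeMP_TRAP against SN_input, Psmb9 passed in both (8.44 and 4.16), Ifngr1, Il10rb and Irf5 in the first alone, Irf8, Irgm1 and Ifit3b in the second alone, and Irf2, Cgas and Zbp1 in neither. In that comparison Irf2 passed in 5 of 16 other settings, with values down to 0.18, Il10rb in 7, down to 0.99, and Ifngr1 in 13, down to 0.07. The values of Jak1, Irgm1 and Gbp7 in PeMP_TRAP against MG_TRAP, and those of Irf8 and Psmb8 in SN_input against Input, passed in the second set alone. Over the other settings Jak1 passed in 8 of 16 (-2.88 to -0.20) and Gbp7 in 9, and Irf8 in SN_input against Input in 7 (1.25 to 2.46).

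Between tamoxifen and control mice edgeR called none of the 59 pathway genes tested in MG_TRAP (median 2.91 as fitted, beside -0.14 over all genes). In PeMP_TRAP 4 were higher and 1 lower, where 5.56% of all genes were called in each direction (median 2.69 as fitted, beside 0): Ifngr1 (7.15, SE 1.70, adjusted p = 0.00965), Tlr7, Trim25 and Xaf1, whose 3 control libraries were at or under 3 counts, and, lower in tamoxifen mice, Irgm1 (-8.72, SE 2.55, adjusted p = 0.0267). Irgm1 spanned 0 to 212 CPM in the control libraries and at most 0.589 CPM in all 8 tamoxifen ones, and its call was kept in 6 of 11 other settings. With tamoxifen levels so near the floor, the size of its fitted value is uncertain.

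**Figure D5:**
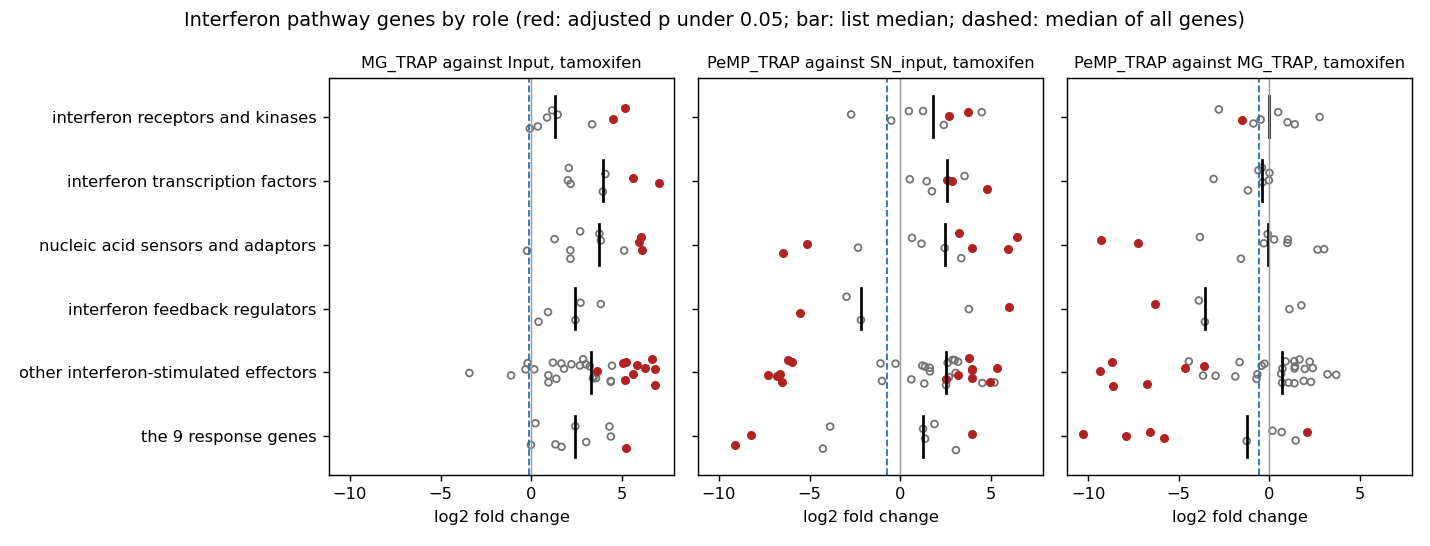
Log2 fold changes (x axis) of the pathway lists and of the 9 response genes (y axis, 1 point per gene) in 3 comparisons between fractions of tamoxifen mice (red, adjusted p under 0.05; black bar, list median; dashed line, median of all genes tested). In MG_TRAP against Input the called genes lie to the right of 0, and in PeMP_TRAP against MG_TRAP those of the wider lists lie to the left.

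The authors' deposited table, made from the first set, gives log2 fold changes and adjusted p-values for 3 comparisons, and all 9 genes are in it. Of the 9 genes, 5 have in the authors' deposited table an adjusted p under 0.05 in MG_TRAP against Input: Oasl2 (7.43, 0.000351), Rtp4 (7.06, 0.000126), Bst2 (7.03, 9.77e-08), Ifit3 (6.30, 0.00129) and Ifitm3 (3.25, 0.0254). For PeMP_TRAP against SN_input the authors' deposited table lists Bst2 (6.21, 6.89e-06), Isg15 (5.70, 0.0148), Ifit3 (4.27, 0.0232), Rtp4 (4.13, 0.0208) and Ifitm3 (2.90, 0.0345). For SN_input against Input the authors' deposited table has none, with Bst2 at 6.19 (0.0529). Recomputed on the tamoxifen libraries of the first set, 2 genes passed in the first comparison, where 2.51% of all genes were called higher, and 1 in the second, where 2.40% were.

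Across the 44 libraries the 9 genes moved together only weakly. Spearman's rho of log2 CPM over the 36 pairs ran from -0.216 for Stat2 and Bst2 to 0.613 for Irf7 and Stat2, with a median of 0.207, and the libraries share fraction, set and depth. Outside all interferon lists, the 5 genes most like the mean of the 9 (each standardized) among 18216 genes were Cdk6 (0.806), Nradd (0.756), Rab29 (0.739), Fam110a (0.738) and Ets1 (0.737), as a description over 44 libraries.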

How the data were processed

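Libraries (SMART-Seq v4, then NEBNext Ultra II, per the labels' protocols) were made from 4 fractions of 11 replicate letters, 44 libraries in all. Per the submitters' processing notes, FastQC 0.11.7, Trimmomatic 0.38, Bowtie2 2.3.5, STAR 2.7.0d, HTSeq 0.9.1 and edgeR were used, edgeR for the first set alone. The genome build, the annotation and the counting options are not given in the sources used here. The deposited values are whole-number counts per Ensembl gene, 1 file per library. The rows of HTSeq that name no gene held 27.0% to 93.4% of the reads and were kept out of totals and tests, and 24 per-sample columns of another table were not used. The authors' deposited table gives log2 fold changes and adjusted p-values for 13634 genes of the first set.

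Libraries were grouped by fraction and treatment from the labels. No pair of libraries held identical counts. Counts over the 50714 shared identifiers were scaled by TMM and tested with edgeR 4.0.16 (limma 3.58.1, R 4.3.3), by the quasi-likelihood test with Benjamini-Hochberg adjustment at 0.05 over all genes kept by a minimum count of 10. Comparisons of fractions in tamoxifen mice used all 32 tamoxifen libraries in 1 fit, comparisons with controls the 24 libraries of the first set, and comparisons of the sets the tamoxifen libraries with terms for set. Log2 CPM has a prior count of 2. If no library of a group exceeded 3 counts, a fold was given only as a bound against the highest such floor in that group. The procedure was tested on simulated data, with 50 genes per size of change. For MG_TRAP against Input it called 4%, 28% and 78% of genes given a log2 change of 2, 4 and 6. For tamoxifen against control in MG_TRAP it called 2%, 14% and 50%. A gene that did not pass may therefore still differ.

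The 9 genes, the pathway lists and the markers were chosen with earlier results of these data known. The rule for named genes takes all 9 in every comparison, but where none or few passed, some are given only as a count. From the other lists, the genes named are up to 3 per list and comparison by size of the log2 fold change, among those past the threshold with an average log2 CPM of at least 2 (no such minimum for tamoxifen against control). Cx3cr1 and Tmem119 check the immunoprecipitation, and the 5 most similar genes were taken by Spearman's rho over 44 libraries. Alternatives were RLE scaling, total counts, no filter, DESeq2 1.42.0, limma voom, a replicate block, each letter left out, and each set alone. Gene loci are from GENCODE M21 on GRCm38, and promoter sequences from RefSeq on GRCm38.p6.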

Additional observations from a re-analysis of the deposited data

Results flagged for a closer look

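In 10 of 34 groups of 8 tamoxifen libraries, the lowest or the highest library stood farther from its nearest neighbour, as a share of the group's whole range on the log2 scale, than Dixon's 95% value for 8 samples allows, which chance alone does in about 1 of 20 groups. Input library F was the lowest for Bst2 (0.657) and Rtp4 (0.558) and the highest for Ifitm3 (0.555), and Input library E was the lowest for Stat2 (0.672). SN_input library D was the lowest for Bst2 (0.738) and Ifitm3 (0.78). MG_TRAP library J was the lowest for Isg15 (0.63) and Stat2 (0.54). In PeMP_TRAP the highest library was F for Oasl2 (0.69), with 1 count, and E for Stat2 (0.591), with 3 counts.

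The test of the enrichment in the synaptosome fraction against that in the homogenate called Irf7 (-9.89 as fitted on the log2 scale), Ifit1 (-9.1) and Oasl2 (-8.66). Each had at most 3 counts in every tamoxifen PeMP_TRAP library and an SN_input mean under the highest floor of those libraries, set by library F. These calls therefore give no size of a difference. The test between the sets called the enrichment of PeMP_TRAP over SN_input lower in the second for Bst2 (-3.75) and Stat2 (-10.57), although Stat2 had at most 3 counts in any of the first-set libraries compared. Apart from that of Bst2, these fitted values depend on the prior count and are no bounds. The number of genes with a count was 5372 to 7369 in PeMP_TRAP of the second set and 11694 to 13096 in the tamoxifen libraries of the first, and its part in these differences was not tested.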

How the results depend on the processing

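Bst2 passed in 16 of 16 alternatives for MG_TRAP against Input (4.59 to 6.59) and for PeMP_TRAP against SN_input (2.34 to 6.23). Of the 237 alternative values of the 9 genes where they had passed, 0 changed sign and 202 passed. Of the 674 where they had not, 61 changed sign and 32 passed. This tally covers the fractions of tamoxifen mice and tamoxifen against control in MG_TRAP and PeMP_TRAP, and leaves out the test between the sets. Among the 237, many come from genes with a whole group at or under 3 counts, where the sign could hardly change. The 0 therefore says little about those genes. Depth limits genes at 0, since 3 counts reach 4.05 CPM, before TMM scaling, in the shallowest library. The causes of the changes below were not tested.

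For MG_TRAP against Input, where 1 gene was called higher, 2 were called with no filter, voom, the replicate block or the first set alone, and 3 by DESeq2. For PeMP_TRAP against SN_input DESeq2 called 2 higher, in place of 1, and the 2 lower calls, among 4108 genes in all, became 4 under RLE scaling (among 4633), DESeq2 (5092) or the second set alone (6139), 0 in the first set alone and 2 to 4 with 1 letter left out. For PeMP_TRAP against MG_TRAP the 1 higher call became 0 under RLE scaling, total counts, DESeq2, voom, the replicate block or either set alone and 0 to 1 with 1 letter left out, and the 4 lower calls became 0 in the first set alone. For SN_input against Input the 1 call became 0 under total counts, voom or the first set alone. For the difference of the enrichments the 3 lower calls became 0 in the first set and 5 in the second.

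For tamoxifen against control, DESeq2 and voom each called 2 genes higher in MG_TRAP, in place of 0. In PeMP_TRAP the 2 higher calls became 0 under total counts and 0 to 2 with 1 letter left out, and the 1 lower call became 2 by DESeq2 and 0 to 1 with 1 letter left out. DESeq2 called 1 lower in Input, 2 higher in PeMP_TRAP against SN_input of controls, and 1 in each difference of enrichments between treatments, as did the fit with no filter for PeMP_TRAP. Between the sets DESeq2 called 1 lower for MG_TRAP, and the 2 lower calls for PeMP_TRAP became 1 under RLE scaling, no filter or the replicate block, 7 by voom (among 7512 genes in all, against 2676) and 1 to 4 with 1 letter left out.

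Signs changed for values that had not passed. For MG_TRAP against Input, Ifit1 was -0.86 to 0.29 with 1 letter left out and 0.23 in the second set, and Stat2 was -0.25 under RLE scaling and by DESeq2, -0.03 under total counts and -0.01 with the replicate block. For PeMP_TRAP against SN_input, Ifit3 was -2.56 by voom and -0.09 (without J) to 1.56 with 1 letter left out, and Rtp4 -2.87 by voom and -1.28 in the second set. Socs3, which had passed there, was -0.50 by voom, -3.64 with the replicate block and -6.58 (without J) to 6.82 with 1 letter left out.

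Libraries of the same letter deviated together with a correlation above 0.1 in 6 of 44 pairs (-0.0387 to 0.226). Of the 44, 28 correlated best with their own letter, among 3 tamoxifen or 3 control letters in the first set and 5 in the second. That is more often than chance would give, so a pairing by letter is not excluded. The main fits did not use it, since the correlations were low and no label gives it. With the replicate block Bst2 was 5.24 (adjusted p = 3.25e-05) and Rtp4 passed for MG_TRAP against Input (4.42, adjusted p = 0.046). For the difference of PeMP_TRAP enrichment between the sets, the block, chosen after seeing the data, left Bst2 at -3.65 (adjusted p = 0.0992). No paired analysis was possible for tamoxifen against control within a fraction because each letter lies in 1 treatment. The bounds with a letter left out were also chosen after seeing the data.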
